A study of Mus musculus with 42 samples.

Results

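The complement system was examined through 29 of the 55573 genes counted in mouse liver. The members were taken by symbol, with earlier results of these data known. They are 5 genes of the classical route (C1ra, C1s1, C2, C4a, C4b), 5 of the lectin route (Mbl1, Mbl2, Fcna, Masp1, Masp2), 4 of the alternative route (C3, Cfb, Cfd, Cfp), 6 of the terminal complex (Hc, C6, C8a, C8b, C8g, C9), 7 regulators (Serping1, C4bp, Cfi, Cfhr2, Cd55, Cd59a, Clu) and 2 receptors (C3ar1, C5ar1). Liver mRNA came from 42 male C57B6/J mice in a study of glucocorticoid treatment with and without block of the androgen receptor. In the acute arm, 6 mice each received vehicle, the glucocorticoid corticosterone (CORT), the androgen receptor antagonist enzalutamide (ENZA) or the 2 together (CORT+ENZA). In the chronic arm, 6 mice each received vehicle, CORT or CORT+ENZA, and the 42 samples hold no chronic group on ENZA alone. Whether ENZA by itself would give the changes seen with chronic CORT+ENZA therefore cannot be told. The sources used here gave no dose, route, age or length of treatment in days. Acute RNA was extracted with a Qiagen kit and chronic RNA with a Macherey-Nagel kit, so that kit and duration cannot be told apart and levels were not compared between arms.

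Complement is a chain of plasma proteins, most of them made by hepatocytes, that marks microbes and damaged cells. The classical route starts from antibody and the lectin route from sugars, and both build an enzyme from C4 and C2 that cleaves C3. The alternative route amplifies that cleavage with factors B and D and properdin, and all routes end in a membrane pore of C5 to C9. Regulators limit each step, and small fragments of C3 and C5 call in leukocytes through receptors. Several complement proteins, C3 among them, belong to the acute phase response of the liver, which glucocorticoids and inflammatory cytokines are both known to influence.

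Each library held 15381724 to 20464521 counts in genes. Levels are given as CPM, counts scaled to library size within an arm. Fkbp5, a gene induced by the glucocorticoid receptor, was 163 to 314 CPM in chronic CORT mice against 10.0 to 66.1 CPM in chronic vehicle mice. It was 172 to 235 CPM in acute CORT mice against 32.7 to 149 CPM in acute vehicle mice. The 7 hepatocyte markers with a symbol match summed to at least 64700 CPM in every mouse. Their sum was 64700 to 84600 CPM in chronic CORT+ENZA mice, below the 103000 to 122000 CPM of chronic vehicle and the 94400 to 129000 CPM of chronic CORT mice. Some mice stood apart. The acute vehicle mouse L31A and the acute CORT+ENZA mouse L30A had Saa1, an acute phase protein, at 1440 and 3180 CPM, where the other mice of their groups had at most 56.2 and 105 CPM. The acute vehicle mouse L19A and the acute CORT+ENZA mouse L36A had the lowest C3 of their groups. The chronic CORT+ENZA mouse 18 had the highest Kupffer cell markers of the chronic arm, 777 CPM summed over 10 genes, and the chronic vehicle mouse 11 had 146 CPM, the lowest of its group.

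In vehicle livers C3, the protein on which all routes converge, had the highest level per length of the 29 genes. Levels between genes were compared as CPM per kb of merged exons. C3 was 790 to 2811 CPM per kb in acute vehicle mice and 940 to 1273 CPM per kb in chronic vehicle mice, and made up 0.509 to 0.629% of all gene counts in the latter. In the acute vehicle group Serping1 (C1 inhibitor), with a mean of 536 ± 105 (SD, n = 6) CPM per kb, and Clu (clusterin), with 512 ± 120, came next and did not differ beyond their spread. C4b followed with 290 ± 65.2 CPM per kb. Next came Cfi (246 ± 63.0) and Mbl2 (231 ± 13.1), whose ranges overlapped. In the chronic vehicle group Clu (343 ± 61.5), Mbl2 (310 ± 55.4), Serping1 (304 ± 48.7) and C4b (266 ± 26.9) came after C3 (1087 ± 127) in that order. The ranges of Clu, Mbl2, Serping1 and C4b overlapped. The order and closeness below C3 depend on the length used. Per kb of the longest transcript, Clu had a mean of 652 and Serping1 of 400 CPM in chronic vehicle mice. In acute vehicle mice these were 973 and 705 CPM. The terminal genes ranged from 56.6 (C6) to 221 (C9) CPM per kb on average in acute and from 65.1 (C6) to 258 (C8g) in chronic vehicle mice. C6 stood apart, with at most 64.4 CPM per kb in acute and 88.8 in chronic vehicle mice. The lowest values of the other terminal genes were 84.6 (Hc, acute) and 105 (C8b, chronic). The receptors were at the low end, with C3ar1 at 0.345 to 0.801 and C5ar1 at 0.0982 to 0.662 CPM per kb in acute vehicle mice. Together the 29 genes took 1.38 to 2.98% of all gene counts over the 42 mice.

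**Figure D1:**
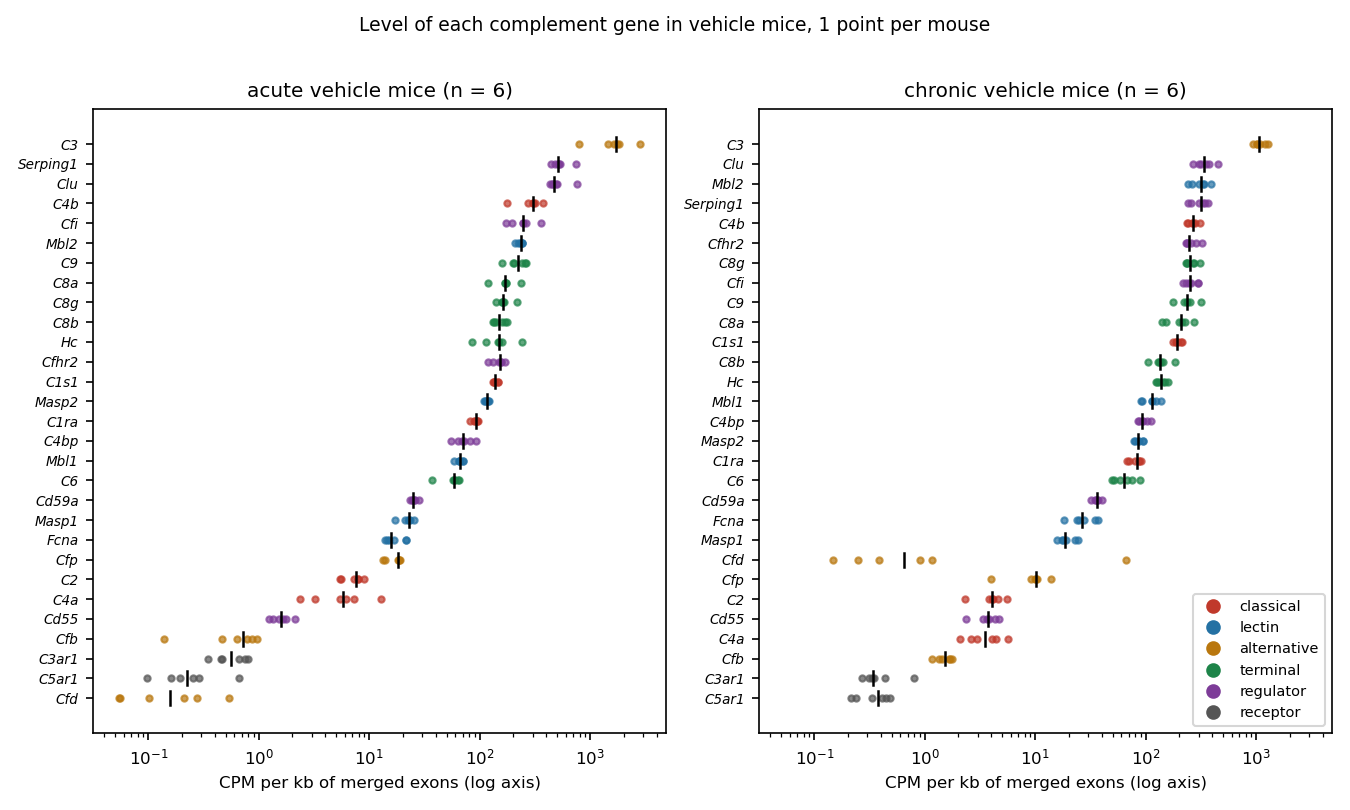
Level of each complement gene in the 6 acute (left) and 6 chronic (right) vehicle mice, as CPM per kb of merged exons on a log axis, with 1 point per mouse, the median as a black line and the role as colour. C3 lies at the top in both arms, and Cfd spans the widest range of the chronic vehicle mice.

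For some genes these levels are uncertain, because part of the gene is shared with another. C2 and Cfb share 42.8% and 79.5% of their exon bases with a read-through gene on the same strand, Gm20547, which had 0 counts in all 42 libraries. Reads in those exons may have been set aside as ambiguous, so the levels of C2 and Cfb cannot be set beside those of other genes. Of the stretches of 50 bases in each gene, 50.8% in C1ra (with C1rb), 24.3% in C1s1 (with C1s2), 35.2% in C4a and in C4b (with each other), and 10.7% in Cd55 (with Cd55b) also occur elsewhere. Masp2 overlaps Tardbp on the other strand over 54.9% of its exon bases, and the strand setting of the counting is not given.

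Most complement genes passed no test under treatment by edgeR with all mice. With chronic CORT, C3, C9 and Cfi were higher and C2 and C4b lower than in vehicle mice. With chronic CORT+ENZA against CORT, C2 was higher and Cfi and C1s1 were lower, while C3 and C4b stayed apart from vehicle. Acute treatment called 3 genes, Mbl1, Mbl2 and C6, each in comparisons with an ENZA group. Of the 29 members 28 passed the filter on low counts in each arm, the exception being Cfd.

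In chronic CORT against vehicle, 5 of 28 members passed the test (adjusted p under 0.05 by edgeR over all genes), 3 higher and 2 lower, which is 17.9% beside 18.3% of all 13099 genes tested. The median log2 fold change of the members was -0.06, beside -0.01 for all genes. The groups did not overlap for 3 members (C4b, C3, Cfi), beside 8.43% of all genes. In chronic CORT+ENZA against CORT 3 of 28 passed (1 higher, 2 lower), beside 11.8% of all genes, and 2 (C1s1, Cfi) did not overlap, beside 6.21%. In chronic CORT+ENZA against vehicle 3 of 28 passed (1 higher, 2 lower), beside 18.6%, and 3 (C1s1, C4b, C3) did not overlap, beside 8.08%. These shares are near or under the background, so the number of complement genes called is not a result about them. In the acute arm 0 of 28 members passed in CORT against vehicle by edgeR, DESeq2 and limma-voom alike, beside 1.62% of 13733 genes, with 3 at an unadjusted p under 0.05 and 0 without overlap (1.47% of all genes). In ENZA against vehicle 1 of 28 passed, beside 1.31% of all genes, and 0 did not overlap (1.65%). In CORT+ENZA against ENZA 2 of 28 passed, beside 1.81%, and 2 (Mbl1, Clu) did not overlap, beside 2.13%. In CORT+ENZA against vehicle 1 of 28 passed, beside 2.47%, and 0 did not overlap, where 1.81% of all genes did not. In CORT+ENZA against CORT 0 passed by any of the 3 tools, beside 0.175%, 0 had an unadjusted p under 0.05, and 0 did not overlap (0.488%). The interaction of CORT and ENZA called 0 members and 0 genes in all by any of the 3 tools, with 1 member, Mbl1, at an unadjusted p under 0.05.

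**Figure D2:**
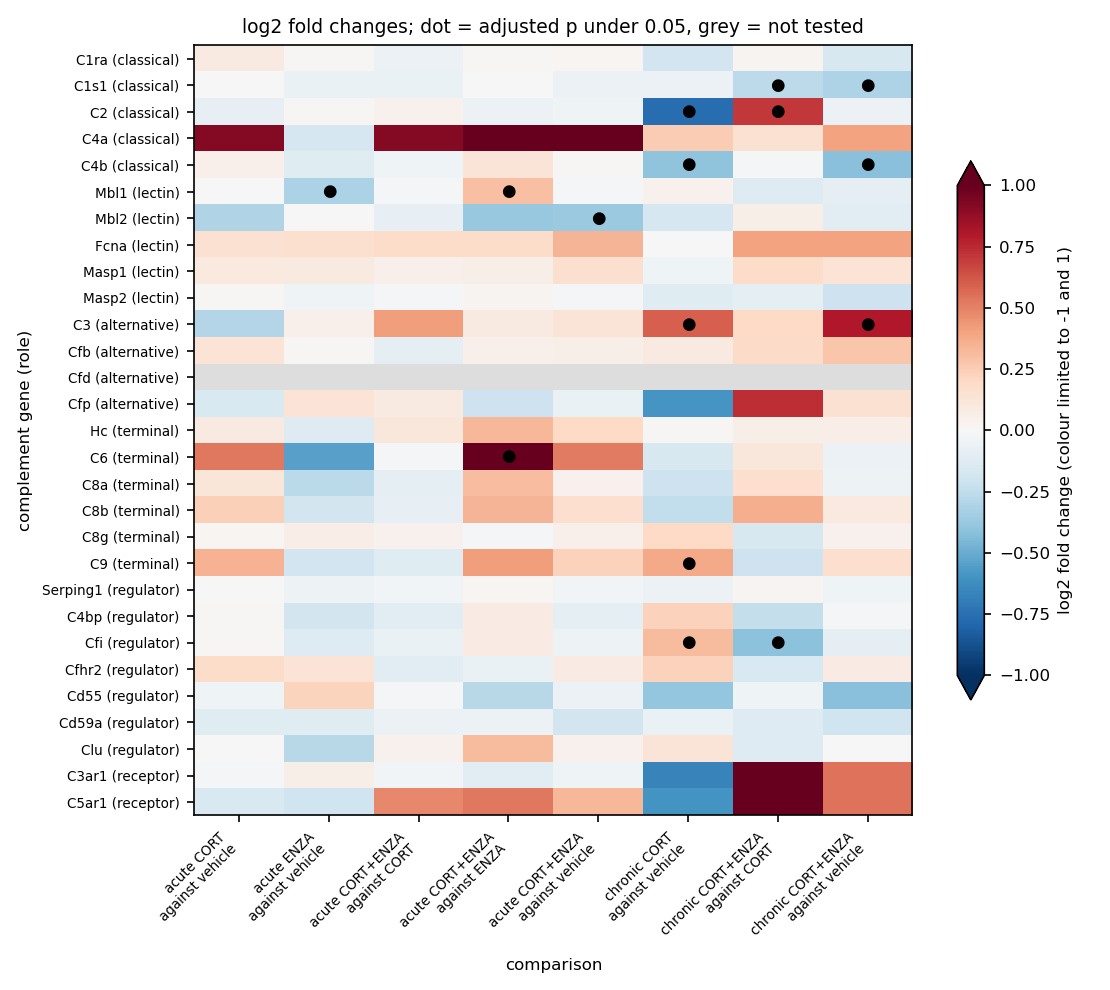
The log2 fold change of each complement gene (rows, with role) in the 8 comparisons between groups (columns), red for higher and blue for lower in the group named first, with colour limited to -1 and 1. A dot marks an adjusted p under 0.05 by edgeR and grey marks Cfd, which was not tested within an arm. Dots in the chronic arm fall on C1s1, C2, C4b, C3, C9 and Cfi, and dots in the acute arm on Mbl1, Mbl2 and C6.

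Among the classical genes, C2, which supplies the protease of the C3-cleaving enzyme, was lower with chronic CORT and back at the vehicle level with CORT+ENZA. Its lowest, median and highest values were 9.03, 15.7 and 21.4 CPM in chronic vehicle mice, 7.79, 8.78 and 12.6 CPM in CORT mice and 11.8, 15.7 and 16.0 CPM in CORT+ENZA mice. The CORT range overlapped both others, through vehicle mouse 14 at the low end, CORT mouse 2 and CORT+ENZA mouse 17. The log2 fold change of C2 was -0.76 ± 0.16 (SE, adjusted p = 0.00236) in CORT against vehicle, or 1.70-fold lower, and 0.71 ± 0.16 (adjusted p = 0.006) in CORT+ENZA against CORT. Against vehicle it was -0.06 ± 0.15 in CORT+ENZA mice. C2 lay between 20.97 and 37.2 CPM in all 4 acute groups and did not pass any test.

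C4b, the main C4 gene, whose protein is cleaved by C1 and the MASPs, was also lower with chronic CORT, and remained lower with CORT+ENZA. It was 1338, 1516 and 1758 CPM (lowest, median, highest) in chronic vehicle mice, 972, 1164 and 1327 CPM in CORT mice and 1056, 1112 and 1246 CPM in CORT+ENZA mice. Neither treated group overlapped the vehicle group. The log2 fold change was -0.40 ± 0.09 (adjusted p = 0.00467) with CORT and -0.42 ± 0.09 (adjusted p = 0.00298) with CORT+ENZA, and -0.02 ± 0.09 between the 2 treated groups. C4a, its neighbour, known as sex-limited protein and listed as a processed transcript in the annotation, did not pass any test. It varied more than any other classical gene, from 9.29 to 219 CPM over the acute mice. The acute CORT+ENZA mice had 51.7 to 219 CPM against 9.29 to 82.8 CPM with ENZA alone, a log2 fold change of 2.01 ± 0.58 with an adjusted p of 0.085. DESeq2 and limma-voom called C4a in that comparison, as did edgeR without ENZA mouse L23A, and DESeq2 also called it in CORT+ENZA against vehicle.

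C1s1, the C1 protease that cleaves C4, was lower with chronic CORT+ENZA. It was 553, 598 and 670 CPM (lowest, median, highest) in vehicle mice, 554, 579 and 622 CPM in CORT mice and 424, 492.6 and 534 CPM in CORT+ENZA mice, which lay below all mice of the other 2 groups. Its log2 fold change in CORT+ENZA mice was -0.31 ± 0.07 (adjusted p = 0.00573) against vehicle and -0.26 ± 0.07 (adjusted p = 0.0318) against CORT. The second of these was lost in 7 of 19 alternatives, among them leaving out CORT mouse 1, 2 or 3 or CORT+ENZA mouse 16, 17 or 18, with adjusted p up to 0.0794. C1ra, its partner protease, was 203 to 268 CPM in chronic vehicle, 198 to 226 CPM in CORT and 184 to 237 CPM in CORT+ENZA mice and did not pass. The hepatocyte markers, whose sum was lowest in the same group, passed the test as lower in 2 of 7 genes against vehicle, beside 18.6% of all genes called, and in 4 of 7 against CORT, beside 11.8%. In CORT against vehicle 3 of 7 were higher, beside 18.3%. Their part in the values of C1s1 was not tested, and in such bulk samples fewer cells of a type and less RNA per cell cannot be told apart.

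Among the lectin genes, changes were seen in the acute arm. Mbl1, a mannose-binding lectin, was 91.0, 103 and 111 CPM (lowest, median, highest) in acute vehicle mice, 93.5, 102 and 114 CPM in CORT mice, 69.2, 83.8 and 91.2 CPM in ENZA mice and 94.0, 99.9 and 115 CPM in CORT+ENZA mice. The ENZA mice lay below all CORT and CORT+ENZA mice and overlapped the vehicle group by 1 vehicle mouse, L1A. Mbl1 had a log2 fold change of -0.32 ± 0.07 (adjusted p = 0.0294) in ENZA against vehicle and 0.30 ± 0.07 (adjusted p = 0.0334) in CORT+ENZA against ENZA. The first call was lost in 7 of 20 alternatives (adjusted p up to 0.119), among them without ENZA mouse L5A, L17A or L29A or vehicle mouse L19A or L25A. The second was lost in 9 of 20 (adjusted p up to 0.12), among them without ENZA mouse L5A, L17A or L29A or CORT+ENZA mouse L6A, L12A, L30A or L36A. The interaction term for Mbl1 was 0.30 ± 0.10 with an adjusted p of 0.994. Mbl1 lay between 141 and 213 CPM in all chronic groups and did not pass.

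Mbl2, the second mannose-binding lectin, was lower in acute CORT+ENZA than in vehicle mice. Its lowest, median and highest values were 228, 256 and 263 CPM with vehicle, 170, 202 and 246 CPM with CORT, 217, 246 and 329 CPM with ENZA and 168, 190 and 232 CPM with CORT+ENZA. Both CORT-treated groups had medians below both other groups, with overlap of single mice. In CORT+ENZA against vehicle its log2 fold change was -0.37 ± 0.10 (adjusted p = 0.0493). It lost its call in 13 of 20 alternatives, with adjusted p up to 0.112, so that leaving out any vehicle mouse, or any CORT+ENZA mouse but L36A, ended it. In CORT against vehicle it was -0.30 ± 0.10 (adjusted p = 0.152) and in CORT+ENZA against ENZA -0.38 ± 0.10 (adjusted p = 0.0551), which DESeq2, limma-voom and 5 other alternatives called, among them without ENZA mouse L11A or L23A or CORT+ENZA mouse L36A. The other lectin genes passed no test by edgeR with all mice, though Fcna was called in chronic CORT+ENZA against vehicle without vehicle mouse 12: Masp1 and Masp2, the proteases that the lectins carry, ranged over 152 to 282 CPM and 191 to 416 CPM in the 42 mice, and Fcna, ficolin A, over 17.9 to 63.1 CPM.

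**Figure D3:**
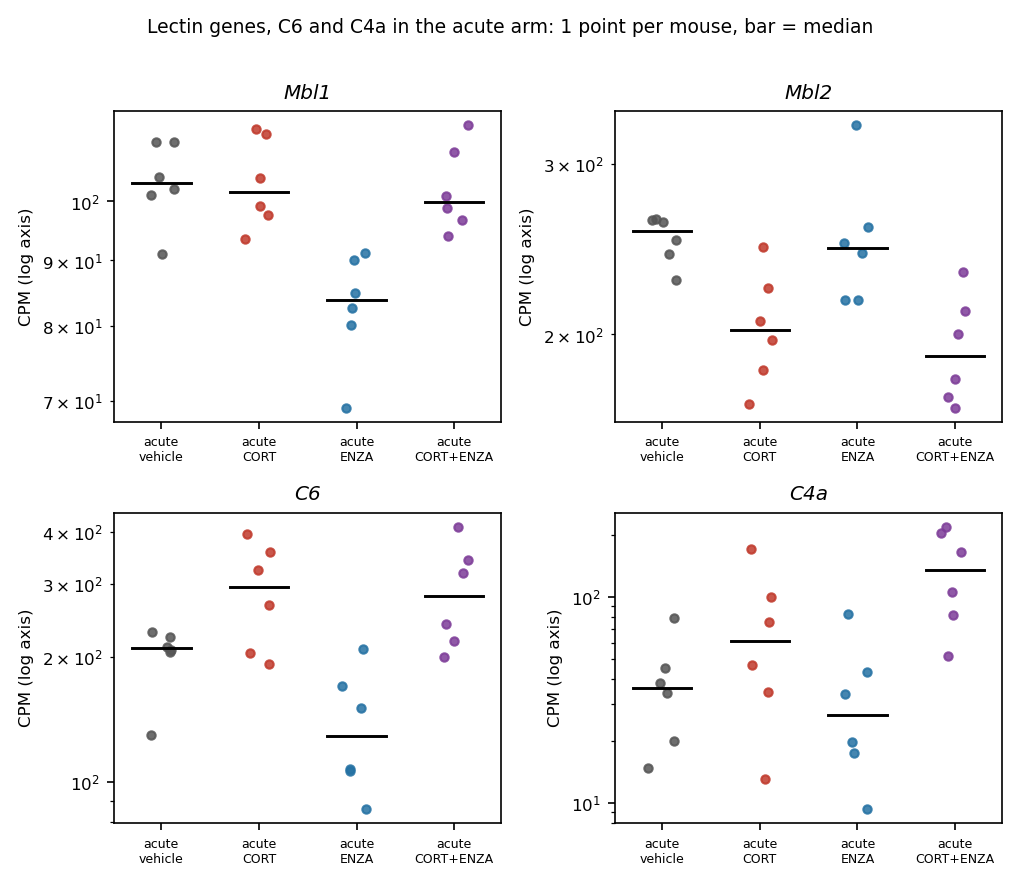
CPM (log axis) of Mbl1, Mbl2, C6 and C4a in the 4 acute groups, with 1 point per mouse and the median as a bar. The ENZA mice lie low for Mbl1 (69.2 to 91.2 CPM) and C6 (85.9 to 209 CPM), the CORT and CORT+ENZA mice lie low for Mbl2, and C4a spreads over a wide range in every group.

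C3 was the member with the smallest adjusted p. It was 4832, 5389 and 6548 CPM (lowest, median, highest) in chronic vehicle mice, 7362, 8513 and 9703 CPM in CORT mice and 8594, 10100 and 10280 CPM in CORT+ENZA mice. Every treated mouse lay above every vehicle mouse. C3 was 1.52-fold higher with CORT (log2 0.60 ± 0.09, adjusted p = 0.000204) and 1.74-fold higher with CORT+ENZA (log2 0.80 ± 0.09, adjusted p = 6.37e-06). The step from CORT to CORT+ENZA, 0.20 ± 0.09, did not pass (adjusted p = 0.185). In chronic livers C3 rose from the 16th to 18th most counted gene in vehicle mice to between the 6th and 12th in CORT mice.

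C3 did not pass any test in the acute arm, and its spread was wide. It was 4062, 8757 and 14460 CPM in vehicle mice, 6751, 7375 and 7473 CPM in CORT mice, 8213, 8575 and 11000 CPM in ENZA mice and 5394, 8675 and 17300 CPM in CORT+ENZA mice. The lowest vehicle and CORT+ENZA values were those of L19A and L36A and the highest those of L31A and L30A. The CORT effect on C3 was -0.29 ± 0.22 in the acute arm (adjusted p = 0.592), and the difference of the CORT effects, chronic minus acute, was 0.92 ± 0.25 (log2, adjusted p = 0.0216). This was the only one of 29 members called for that difference, beside 6.17% of 14138 genes. Without acute vehicle mouse L31A the difference was 0.73 and its adjusted p 0.0582, and without a filter on low counts the adjusted p was 0.0639. Without L19A and L36A it was 1.06, with an adjusted p of 0.000585. L36A is in no group of this difference. L19A had the lowest and L31A the highest C3 of the vehicle group. Leaving out the first raises the difference and leaving out the second lowers it, so neither value is a separate test of it.

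The 250 bases before the start of C3 are printed because C3 was the called gene with the smallest adjusted p that the RefSeq promoter table (GRCm38.p6) holds. C2, C4b and Cfi have no entry there. C9 has one, but its window overlaps the annotated start of the gene and is not printed. The stretch lies at chr17:57228137-57228386 on the minus strand and is given 5′ to 3′, with matches to TTNNGNAA, the core of C/EBP sites, in capitals.
C3: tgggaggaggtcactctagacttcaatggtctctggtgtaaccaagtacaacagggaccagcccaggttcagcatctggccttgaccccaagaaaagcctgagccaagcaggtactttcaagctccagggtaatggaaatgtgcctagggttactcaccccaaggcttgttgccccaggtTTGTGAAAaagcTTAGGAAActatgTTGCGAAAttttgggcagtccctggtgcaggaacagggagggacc
The 3 matches lie 70 to 63, 58 to 51 and 45 to 38 bases before the start. This motif was added after the sequence had been seen, both strands were searched, and 36.8% of the 32851 windows of the table hold at least 1 match, as do 10 of the 21 members listed. The C3 window holds no match to the steroid receptor inverted repeat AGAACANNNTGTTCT (0.00913% of all windows, 0 of 21 members), a single copy of it, AGAACA, which also lies in the inverted repeat (16.1%, 4 of 21 members), or the STAT repeat TTCNNNGAA (7.02%, 2 of 21 members). The C9 window holds AGAACA 21 to 16 and a C/EBP match, TTGCATAA, 132 to 125 bases before the start given there. A match is only a description of the letters. Cebpd, which codes for C/EBP delta, was higher with chronic CORT (log2 1.28 ± 0.17, adjusted p = 5.18e-05) and with chronic CORT+ENZA (0.98 ± 0.17, adjusted p = 0.000474) against vehicle. Its part in the C3 values was not tested. The 10 members with a C/EBP match include C1s1, which was lower with chronic CORT+ENZA, and C1ra and C6, which had no chronic call.

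Of the other alternative route genes, Cfb (factor B) passed no test, at 0.394 to 2.69 CPM in acute and 3.30 to 6.71 CPM in chronic mice. Cfp, properdin, which stabilises the alternative enzyme and is made by leukocytes, was 6.83 to 23.96 CPM in chronic vehicle, 6.99 to 14.0 CPM in CORT and 9.62 to 43.2 CPM in CORT+ENZA mice. Its highest values in each arm, 43.2 CPM in CORT+ENZA mouse 18 and 62.4 CPM in acute ENZA mouse L29A, came with the highest summed Kupffer cell markers of that arm, 777 and 778 CPM. Vehicle mouse 11, with the lowest Kupffer markers of its group, had the lowest Cfp. The log2 fold change of Cfp in chronic CORT against vehicle was -0.59 ± 0.34 (adjusted p = 0.241). It was -0.75 ± 0.32 (adjusted p = 0.107) without mouse 11, and -0.74 ± 0.18 (adjusted p = 0.00502) without mice 11 and 18. Mouse 18 is not in this comparison and enters it only through the shared estimate of spread. Both mice lay at the ends of the Cfp range, so the last value is not taken as a call.

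Cfd, factor D or adipsin, the protease that activates factor B and is known as a product of fat cells, was near 0 in most livers. It was at most 1.16 CPM in all 24 acute mice. In chronic vehicle mice it was 0.135 to 1.08 CPM in 5 mice and 61.4 CPM (1155 counts) in mouse 15, in CORT mice 0 to 0.122 CPM in 5 mice and 1.91 CPM in mouse 26, and in CORT+ENZA mice 0.0512 to 0.175 CPM in 5 mice and 14.0 CPM in mouse 5. These 3 mice also had the highest Adipoq, an adipocyte gene, at 16.4, 1.96 and 13.6 CPM, where the other chronic mice had at most 0.478 CPM. Summed over the 6 adipocyte markers, mice 15, 26 and 5 had 59.7, 7.31 and 29.1 CPM, the highest of their groups, whose medians were 6.05, 2.50 and 1.19 CPM. Adipoq was at most 0.0534 CPM in the acute mice, whose 6 markers summed to 7.49 to 43.5 CPM. The part of fat cells in these Cfd values was not tested. With all mice only the fit of both arms tested Cfd, which had a chronic minus acute CORT difference of -6.23 ± 2.17 (log2, adjusted p = 0.0816), called only without CORT mouse 26. Without CORT+ENZA mouse 18 it was also tested within the chronic arm, with 2.97 ± 2.03 in CORT+ENZA against CORT (adjusted p = 0.394) and -1.89 ± 1.54 against vehicle (adjusted p = 0.413).

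**Figure D4:**
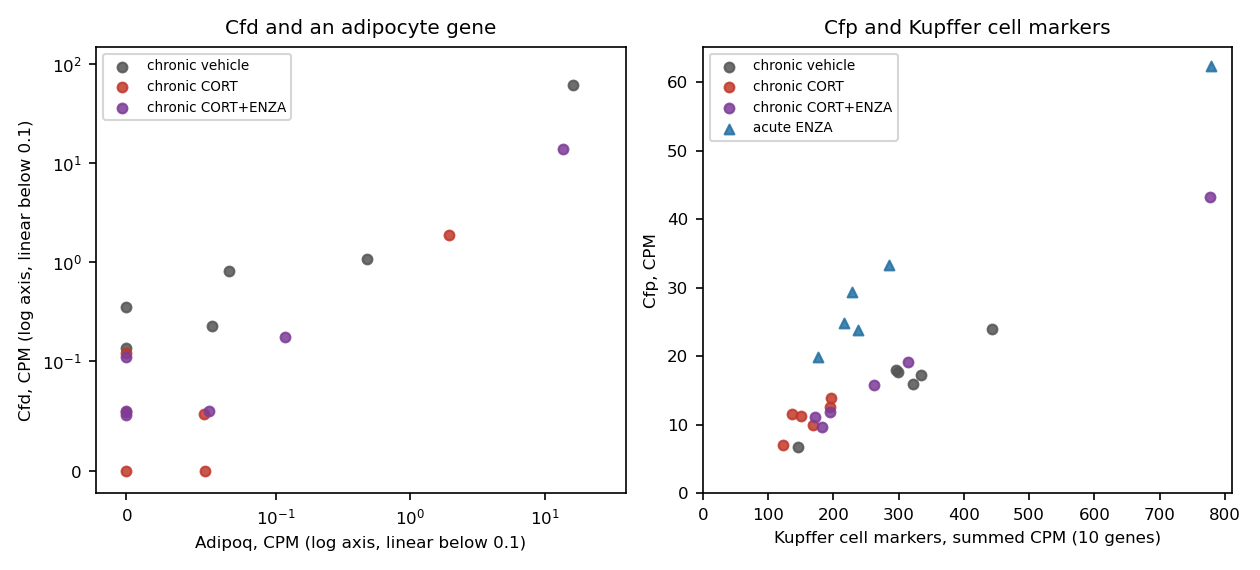
Left, CPM of Cfd against the adipocyte gene Adipoq in the 18 chronic mice, on log axes that are linear below 0.1. Right, CPM of Cfp against the summed CPM of 10 Kupffer cell markers in the chronic mice (circles) and the acute ENZA mice (triangles). Each point is 1 mouse. Mice 15, 5 and 26 lead on both axes at left, and mice 18 (777, 43.2) and L29A (778, 62.4) on both axes at right.

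Among the terminal genes, C9, which polymerises into the pore, was higher with chronic CORT. It was 453, 602 and 811 CPM (lowest, median, highest) in vehicle mice, 689, 745 and 934 CPM in CORT mice and 602, 696 and 760 CPM in CORT+ENZA mice. The groups overlapped. C9 had a log2 fold change in CORT against vehicle of 0.38 ± 0.12 (adjusted p = 0.0316), and was lost in 6 of 19 alternatives, each leaving out 1 mouse (CORT 2 or 3, vehicle 12, 13, 14 or 15), with adjusted p up to 0.073. In acute CORT against vehicle C9 had 0.35 ± 0.14 (adjusted p = 0.221), and the difference of both CORT effects was 0.06 ± 0.19.

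C6, which joins the forming pore after C5, was higher in acute CORT+ENZA than in acute ENZA mice. Its lowest, median and highest values were 130, 210 and 229 CPM with vehicle, 193, 295 and 395 CPM with CORT, 85.9, 129 and 209 CPM with ENZA and 200, 280 and 412 CPM with CORT+ENZA. The ENZA and CORT+ENZA groups overlapped by 1 ENZA mouse. C6 was 2.09-fold higher in CORT+ENZA than in ENZA mice (log2 1.06 ± 0.22, adjusted p = 0.0129), and this held in all 20 alternatives, with adjusted p up to 0.0481. Neither single treatment passed against vehicle, with 0.53 ± 0.22 for CORT (adjusted p = 0.263) and -0.54 ± 0.22 for ENZA (adjusted p = 0.253). C6 lay between 111 and 316 CPM in the chronic mice with no call. Hc, the gene of C5, was 780 to 984 CPM in chronic vehicle, 820 to 898 CPM in CORT and 845 to 952 CPM in CORT+ENZA mice, so that its chronic log2 fold changes were 0.01 ± 0.07 and 0.07 ± 0.07 against vehicle. The 3 C8 chain genes, C8a, C8b and C8g, passed no test and lay at 385 to 998, 176 to 570 and 194 to 530 CPM over all mice.

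Among the regulators, Cfi, the protease that inactivates C3b and C4b, rose with chronic CORT and was back at the vehicle level with CORT+ENZA. It was 477, 560 and 665 CPM (lowest, median, highest) in vehicle mice, 679, 692 and 796 CPM in CORT mice and 511, 539 and 559 CPM in CORT+ENZA mice. The CORT mice lay above all mice of both other groups. Cfi had a log2 fold change of 0.32 ± 0.08 (adjusted p = 0.0123) in CORT against vehicle, -0.41 ± 0.08 (adjusted p = 0.00327) in CORT+ENZA against CORT and -0.09 ± 0.08 in CORT+ENZA against vehicle. With acute CORT Cfi had 0.01 ± 0.14, and the difference between the arms, 0.33 ± 0.17, did not pass by edgeR (adjusted p = 0.259) and did by limma-voom.

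C4bp, the cofactor of Cfi for C4b, had values of the same sign that missed the threshold, 0.23 ± 0.08 in chronic CORT against vehicle (adjusted p = 0.0607) and -0.24 ± 0.08 in CORT+ENZA against CORT (adjusted p = 0.0621). It was 567.9, 627 and 752 CPM in vehicle, 669, 757 and 818 CPM in CORT and 579, 635 and 691 CPM in CORT+ENZA mice. DESeq2 called both, as did edgeR without CORT mouse 27, and limma-voom called the first. Without vehicle mouse 11 its CORT value was 0.25 ± 0.09 (adjusted p = 0.0449). In that setting Cfhr2, with 0.26 ± 0.09 (adjusted p = 0.0471), and Cd55, which speeds the decay of the C3-cleaving enzymes, with -0.49 ± 0.17 (adjusted p = 0.0438), also passed, against 0.23 ± 0.09 (adjusted p = 0.071) and -0.39 ± 0.18 (adjusted p = 0.137) with all mice. DESeq2 and limma-voom also called Cfhr2, and edgeR without vehicle mouse 10 called Cfhr2 and C4bp. The count of members called in chronic CORT against vehicle was thus 8 without mouse 11 and 9 without mice 11 and 18. Mouse 18, on CORT+ENZA, is not in that comparison. The share of all genes called in these settings is not given here, so the counts are not a result about the members. Serping1, Clu, which binds forming pores, and Cd59a, which blocks C9, passed no test, with chronic values of 555 to 840, 926 to 1530 and 52.1 to 72.0 CPM. Serping1 and Clu were highest among acute mice in L31A (1719 and 2590 CPM) and L30A (1698 and 2642 CPM), the mice with high Saa1.

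**Figure D5:**
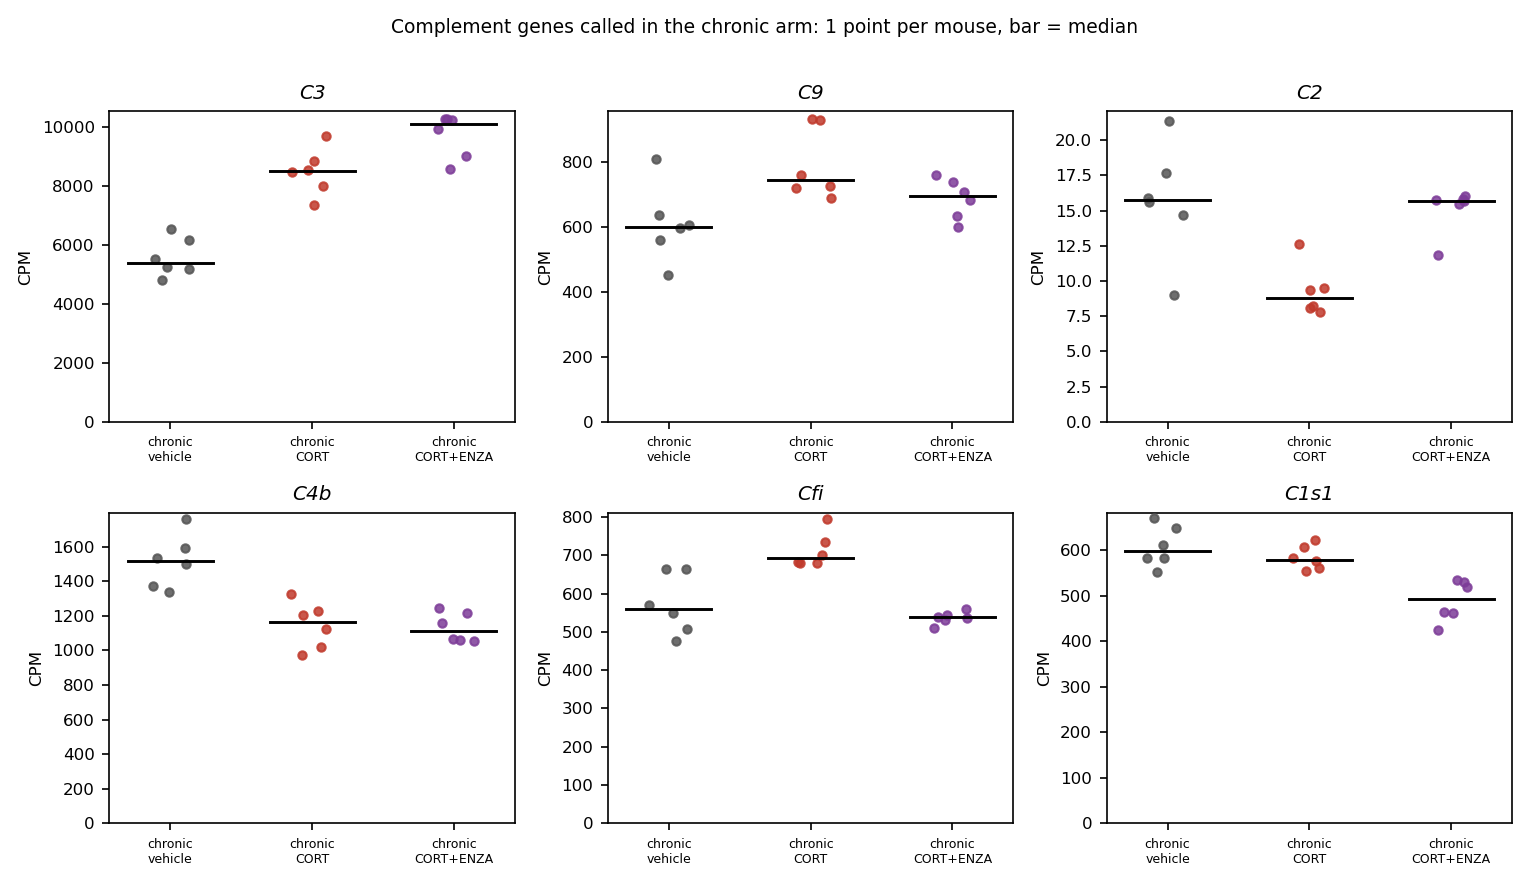
CPM of the 6 complement genes called in the chronic arm, in vehicle, CORT and CORT+ENZA mice (n = 6 each), with 1 point per mouse, the median as a bar and axes from 0. C3 is higher in both treated groups, C4b lower in both, Cfi higher and C2 lower with CORT alone, and C1s1 lower with CORT+ENZA.

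The receptors C3ar1 and C5ar1, carried by myeloid cells, were among the least counted genes and passed no test by edgeR with all mice. C3ar1 was 1.17 to 3.45 CPM in chronic vehicle, 0.433 to 1.46 CPM in CORT and 1.11 to 6.90 CPM in CORT+ENZA mice, and C5ar1 was 0.552 to 1.25, 0.371 to 0.912 and 0.442 to 3.67 CPM. Both top values were those of CORT+ENZA mouse 18. In CORT+ENZA against CORT the log2 fold changes were 1.21 ± 0.40 (adjusted p = 0.0582) for C3ar1 and 1.14 ± 0.43 (adjusted p = 0.0882) for C5ar1, and without mouse 18 they were 0.63 ± 0.30 and 0.53 ± 0.32 (adjusted p = 0.192 and 0.328). DESeq2 called C3ar1 in that comparison, as did edgeR without CORT+ENZA mouse 4, and C5ar1 was called without CORT+ENZA mouse 16. The summed Kupffer cell markers were 146 to 443 CPM in chronic vehicle, 123 to 197 CPM in CORT and 172 to 777 CPM in CORT+ENZA mice. Of the 10 markers 3 passed as lower in CORT against vehicle, beside 18.3% of all genes called, and 3 as higher in CORT+ENZA against CORT, beside 11.8%, with none at 0 in every mouse of a group. The part of Kupffer cells in the receptor values was not tested.

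Several members are neighbours in the genome. C4b, C4a, Cfb and C2 lie together on chromosome 17, within 34728380 to 34898265 (GRCm38), all on the minus strand. In chronic CORT against vehicle C4b and C2 were lower, while C4a (0.25 ± 0.36) and Cfb (0.09 ± 0.16) did not pass. C8a and C8b, neighbours on chromosome 4, had -0.21 to 0.17 and -0.25 to 0.36 in the 3 chronic comparisons, with no call.

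Between the arms, the added effect of ENZA on top of CORT, chronic minus acute, called 0 of 29 members by edgeR and DESeq2, beside 1.27% of all genes, with 4 at an unadjusted p under 0.05. C2 had 0.64 ± 0.21 there (adjusted p = 0.132) and was the 1 member called by limma-voom. For the CORT effect, chronic minus acute, C2 had -0.65 ± 0.21 (adjusted p = 0.0562) and C4b -0.42 ± 0.18 (adjusted p = 0.171), so that edgeR with all mice did not call a difference between the arms for them. Other settings did so for C2, among them DESeq2, limma-voom, RLE size factors and leaving out acute vehicle mouse L19A, acute CORT mouse L14A, chronic vehicle mouse 14 or chronic CORT mouse 2.

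Of 26 other complement genes, 20 passed the filter in each arm and were tested. In chronic CORT against vehicle 0 were higher and 3 lower, in CORT+ENZA against CORT 3 were higher and 1 lower, and in CORT+ENZA against vehicle 1 was lower, with the backgrounds given above. Colec11, a collectin that starts the lectin route, was 25.6 to 34.1 CPM in vehicle and 14.8 to 20.6 CPM in CORT mice (log2 -0.77 ± 0.18, adjusted p = 0.00561), and its CORT effect also differed between the arms (-0.95 ± 0.21, adjusted p = 0.00338). Its partner Colec10 was called only for that difference (-0.83 ± 0.24, adjusted p = 0.0301), which 11 of 31 alternatives lost (without a filter, or without chronic CORT mouse 1, 2 or 25, chronic vehicle 10 or 14, acute vehicle L1A or L19A, or acute CORT L2A, L14A or L20A). Vtn, vitronectin, which binds the forming pore, was 1840 to 2720 CPM in vehicle, 2070 to 2570 CPM in CORT and 1640 to 1980 CPM in CORT+ENZA mice, and was lower in the last group than in CORT mice (log2 -0.37 ± 0.09, adjusted p = 0.0126) with no overlap. It was also lower than in vehicle mice (-0.33 ± 0.09, adjusted p = 0.0155), a call that 1 of 19 alternatives lost (no filter on low counts, adjusted p = 0.0501). Cr1l, a regulator of C3 cleavage, fell by 0.22 ± 0.07 with chronic CORT (log2, adjusted p = 0.0235), a call that 7 of 19 alternatives lost, among them without CORT mouse 1, 25 or 27 or vehicle mouse 10. Its CORT effect differed between the arms by -0.30 ± 0.09 (adjusted p = 0.0412), which 17 of 31 alternatives lost.

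In the chronic arm the other 4 genes of this list that were called are leukocyte genes. C1qa, a chain of C1q, had medians of 28.5 CPM in chronic vehicle and 15.2 CPM in CORT mice (log2 -0.82 ± 0.25, adjusted p = 0.0318), and 10 of 19 alternatives lost the call, among them without CORT mouse 1, 3, 25, 26 or 27 or vehicle mouse 10, 12, 13 or 14. C1qb was 17.6 to 27.9 CPM in CORT and 25.7 to 95.5 CPM in CORT+ENZA mice (0.92 ± 0.27, adjusted p = 0.0375), and 8 of 19 alternatives lost the call, among them without CORT mouse 1, 3, 25, 26 or 27 or CORT+ENZA mouse 17. Itgb2 and Itgax, the chains of a receptor for C3 fragments, had 1.36 ± 0.39 (adjusted p = 0.0318) and 3.29 ± 0.87 (adjusted p = 0.0197) in that comparison, and without mouse 18 they had 0.72 ± 0.25 and 1.62 ± 0.53 (adjusted p = 0.0672 and 0.0546). The Itgb2 call was also lost without any 1 of the 6 CORT mice. Among acute comparisons 1 of the 20 was called in CORT against vehicle: C7, of the pore complex, at 0.351 to 1.83 CPM in CORT and 0.103 to 0.465 CPM in vehicle mice (log2 1.60 ± 0.41, adjusted p = 0.0434). C7 was named after its values were seen, and 8 of 18 alternatives lost its call: a term for the sets of consecutive mouse numbers (1.54 ± 0.42, adjusted p = 0.0595), and leaving out vehicle mouse L7A, L13A, L19A or L25A or CORT mouse L8A, L14A or L32A.

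Genes of the wider acute phase response did not move as one with C3. Of 17 acute phase protein genes tested, 3 were higher and 4 lower in chronic CORT against vehicle, which is 41.2% beside 18.3% of all genes. In chronic CORT+ENZA against vehicle 2 were higher and 6 lower, which is 47.1% beside 18.6%. Hp, haptoglobin, was higher with CORT (log2 0.62 ± 0.14, adjusted p = 0.00519), with 2420 to 3740 CPM against 1330 to 2460 CPM in vehicle mice. Saa1 was lower (-2.46 ± 0.51, adjusted p = 0.00311), with 4.82 to 18.1 CPM against 16.3 to 94.4 CPM. Hp, Saa1 and Cebpd were named after their values were seen. The list is a reference for C3 only, and no test of the list as a whole was made.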

How the data were processed

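The authors deposited raw counts of reads by gene, in a table for each arm with a column for each mouse, and these were used unchanged. Per the submitters' processing notes they come from STAR 2.7.3a and HTSeq 0.12.4 on mm10, with FastQC and MultiQC. Neither annotation release nor strand setting was given in the sources used here. Per the labels' protocols, the libraries are stranded, mRNA-enriched, 100 bp paired ends. GENCODE M21 gave coordinates and exon lengths.

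In R 4.3.3, edgeR 4.0.16 (filterByExpr with minimum count 10 and total 15, TMM, robust quasi-likelihood fit) was run on all libraries of an arm, or of both arms for differences between them. The Benjamini-Hochberg adjustment ran over all genes tested, with calls at 0.05. Log2 fold changes carry the standard error. CPM values were scaled by TMM within an arm. The fit was checked on simulated counts: with 100 genes changed at each size among 13733 (acute CORT against vehicle), 84 were recovered at a log2 change of 1 and 40 at 0.5, and among 13099 (chronic CORT against vehicle), 73 and 40. Smaller changes can therefore be missed.

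All 29 members are described. A member called in any comparison has the lowest, median and highest CPM given, and at most 8 called genes of the other complement list are named by smallest adjusted p, with C7 added after its values were seen. The members and lists were chosen with earlier results of these data known. Each library is labelled as a separate mouse, so p-values measure the spread between mice. Alternatives were DESeq2 1.42.0, limma-voom (limma 3.58.1), RLE size factors, other filters, fewer groups, mouse number sets, and mice left out.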

Additional observations from a re-analysis of the deposited data

Results flagged for a closer look

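Of 203 sets of 6 mice (29 genes in 7 groups), 31 had 1 mouse set apart from the other 5 by more than Dixon's 95% limit, where chance flags about 1 in 20 sets. Several fell on the same mice. The acute CORT+ENZA mouse L30A was highest for C3 (17300 CPM), Serping1 (1698 CPM), C4bp (663 CPM) and Clu (2642 CPM), and the acute vehicle mouse L31A for Serping1 (1719 CPM) and Clu (2590 CPM). The acute ENZA mouse L17A was highest for Mbl2 (329 CPM), C9 (659 CPM) and Cfi (631 CPM), and mouse L29A for C1ra (324 CPM), Cfp (62.4 CPM) and Serping1 (1535 CPM). The chronic CORT+ENZA mouse 18 was highest for Cfp (43.2 CPM), C3ar1 (6.90 CPM) and C5ar1 (3.67 CPM) and lowest for Masp2 (191 CPM).

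Cfd was set apart in chronic vehicle mouse 15 (61.4 CPM), CORT mouse 26 (1.91 CPM), CORT+ENZA mouse 5 (14.0 CPM) and acute CORT+ENZA mouse L36A (0.763 CPM). C2 was set apart in acute CORT+ENZA mouse L36A (37.2 CPM), chronic CORT mouse 2 (12.6 CPM) and, at the low end, chronic CORT+ENZA mouse 17 (11.8 CPM). Chronic CORT mouse 2 was also highest for Serping1 (796 CPM), and CORT+ENZA mouse 4 for Mbl2 (361 CPM).

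The remaining values were single: C8g in acute vehicle mouse L19A (321 CPM), C5ar1 in acute vehicle mouse L25A (1.70 CPM) and acute CORT mouse L14A (1.21 CPM), C3ar1 in chronic vehicle mouse 12 (3.45 CPM), and, at the low end, C6 in acute vehicle mouse L1A (130.0 CPM) and C4bp in acute CORT mouse L20A (405 CPM).

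The CORT effect on C3 differed between the arms by 0.92 (log2, chronic minus acute) in the test of that difference. The cause was not tested, and the arms also differ in RNA kit.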

How the results depend on the processing

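Of 320 alternative values of the 16 called fold changes of members, 276 kept their call, 44 missed the threshold and 0 changed sign. The calls of C3, C2, C4b and Cfi within the chronic arm, of C6 and of C1s1 against vehicle were kept in all their alternatives. The cause of the changes below was not tested, except that leaving out mice or groups leaves fewer samples.

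The number of members called in acute ENZA against vehicle (1) was 0 without a low-count filter, 0 with only the groups compared and 0 to 1 with 1 mouse left out. In acute CORT+ENZA against ENZA (2) it was 1 without a filter, 5 with limma-voom, 4 with DESeq2, 1 with only the groups compared and 1 to 4 with 1 mouse left out (4 without ENZA mouse L23A). In acute CORT+ENZA against vehicle (1) it was 0 without a filter, 2 with DESeq2, 0 with only the groups compared and 0 to 1 with 1 mouse left out. In chronic CORT against vehicle (5) it was 9 without mice 11 and 18 and 4 to 8 with 1 mouse left out. In chronic CORT+ENZA against CORT (3) it was 5 with DESeq2, which added C3ar1 and C4bp. C1s1 lost its call there in 7 of 19 alternatives, among them no low-count filter. As given above, leaving out single mice also added C4bp, C3ar1 or C5ar1. For the CORT effect, chronic minus acute (1), the number of members called was 2 with RLE size factors, 0 without a filter, 2 with a filter of CPM 1 in 6 libraries, 3 with limma-voom, 2 with DESeq2, 2 without L19A and L36A and 0 to 2 with 1 mouse left out. For the added ENZA effect, chronic minus acute (0), limma-voom gave 1, as did leaving out L19A together with L36A (1). These counts stand without the share of all genes called in the same setting, so they are not a result about the members.

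Over all genes the number called ranged from 96 to 432 (222 as reported) in acute CORT, 77 to 388 (180) in acute ENZA, 14 to 59 (24) in acute CORT+ENZA against CORT, 118 to 603 (248) against ENZA, 203 to 650 (339) against vehicle, and 509 to 1650 (873) and 129 to 432 (179) for the CORT and added ENZA effects between arms. In the chronic arm limma-voom called 3833 against 2434 in CORT+ENZA against vehicle. Mouse numbers do not repeat between groups, so the labels pair no mice. A term for sets of consecutive acute numbers, 1 mouse of each acute group per set, kept the 4 acute calls of members and lost that of C7 (adjusted p = 0.0595). Chronic numbers lie in blocks of a single treatment: CORT 1 to 3 and 25 to 27, CORT+ENZA 4 to 6 and 16 to 18, vehicle 10 to 15. The labels do not say whether a block marks a batch, and an effect shared by a block could not be told from treatment. Genes under about 1 CPM, such as Cfd and C5ar1, rest on few counts, and small changes in them were not detectable at this depth.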
